A study of Mus musculus with 4 samples.

Results

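Wnt proteins are secreted signals that bind Frizzled receptors together with the co-receptors LRP5 and LRP6, and so stabilise beta-catenin, which acts with TCF/LEF factors on target genes. R-spondins strengthen the signal by holding receptors at the cell surface, whereas secreted Frizzled-related proteins, Dickkopf proteins and WIF1 bind ligands or co-receptors and mostly damp it. In the developing brain the cortical hem, a signalling centre at the medial edge of the cortex, releases several Wnt ligands on which formation of the hippocampus depends. The genes described here are the mouse genes for these ligands, receptors and secreted modulators, taken by symbol as every gene starting with Wnt, Fzd, Sfrp, Dkk or Rspo followed by a digit, plus Frzb, Wif1, Lrp5, Lrp6, Axin2 and Notum. They are 48 of the 19938 genes with a probe set of their own in the platform annotation, and include Fzd10os, a transcript from the strand opposite to Fzd10 that encodes no receptor.

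RNA came from C57BL/6J fetuses at embryonic day 18, on 4 Affymetrix arrays, 1 for each combination of tissue (forebrain or hippocampus) and maternal treatment. Dams were given phosphate-buffered saline (PBS) or ethanol into the stomach on 5 days, embryonic days 8 to 12, and the ethanol dose was 2.9 g per kg per day in a 15% solution by volume. The labels do not say how many fetuses or litters stand behind an array, so a litter or array difference cannot be told apart from ethanol. With no replicates, differences within a tissue have no p-value. Values are the deposited log2 readings, of which a difference of 0.58 is 1.5-fold. Genes with a 4-array mean of at least 7.11, the middle value of the means of all probe sets, were kept, which left 11013.

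The middle value of the kept genes was 8.57 on the hippocampus ethanol array and 8.66 to 8.68 on the other arrays, so many genes read slightly lower on it. With arrays centred on that middle value, 43.6% of kept genes read lower in hippocampus after ethanol, and 54.8% did after quantile normalization, against 69.3% as deposited. Centring adds the same 0.10 to every hippocampus difference and 0.02 to every forebrain difference. Of 14 kept markers of hippocampal fields, 3 read higher in hippocampus than in forebrain in both treatments. Zbtb20 was among them, at 0.35 after PBS and 0.23 after ethanol. The share of all kept genes that did so was not counted, and 69.6% of them read lower in hippocampus among the ethanol arrays. Without that share, 3 of 14 cannot be called few or many. These markers as a set therefore neither bear out the tissue label nor count against it. Prox1, Lef1 and Lhx9 among them also served as thalamic markers. Markers of other tissue compartments also differed between the arrays, and their values are given beside the Wnt genes.

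Of the 48 Wnt genes, 19 passed the filter: the ligands Wnt4, Wnt5a, Wnt7a and Wnt7b, the receptors Fzd1, Fzd2, Fzd3, Fzd6, Fzd7, Fzd8 and Fzd9, the co-receptors Lrp5 and Lrp6, the R-spondins Rspo2 and Rspo3, the inhibitors Sfrp1, Sfrp2 and Dkk3, and Axin2. After ethanol 16 of these 19 read lower in hippocampus and 3 higher, with a median difference of -0.23, while 69.3% of all kept genes read lower and their median was -0.08. All 19 kept their direction with centred arrays (median -0.14) and after quantile normalization (median -0.19), when the median of all kept genes was 0.02 and -0.02. In forebrain 12 read lower and 7 higher, with a median of -0.01, against 53.8% lower over all kept genes, whose median was -0.01 too. With centred arrays the forebrain split was 9 lower and 10 higher. On the deposited values the hippocampus ethanol array was the lowest of the 4 for 15 of the 19, against 50.2% of all kept genes. That count was not repeated with centred arrays. There Fzd2, Fzd3 and Rspo3, which are among the 15, read above forebrain ethanol by 0.05, 0.05 and 0.06. In bulk tissue, fewer cells of a type and less RNA per cell cannot be told apart.

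**Figure D1:**
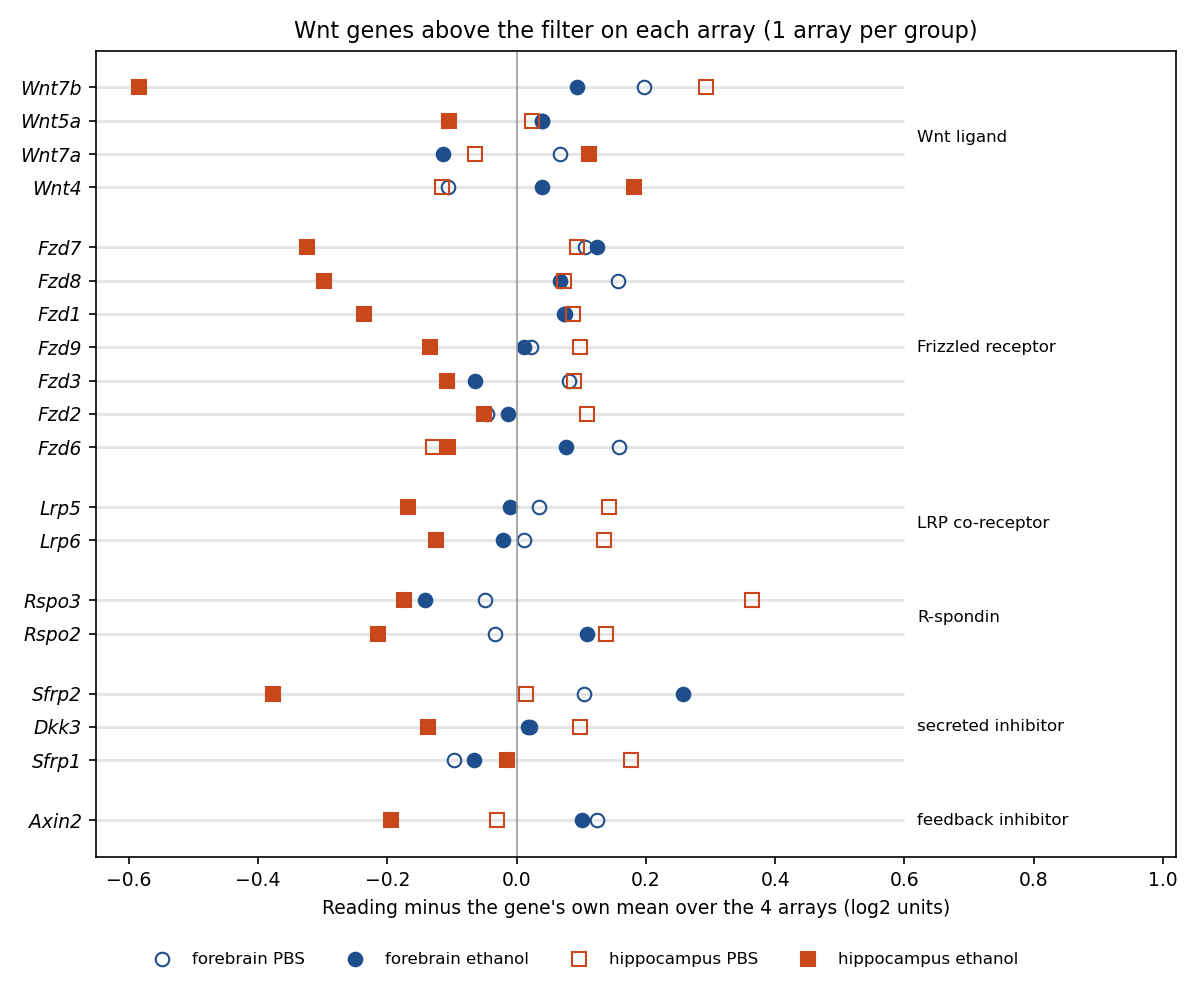
Reading of each of the 19 Wnt genes above the filter on the 4 arrays, as the distance in log2 units from the gene's own mean, grouped by role; circles are forebrain, squares hippocampus, open symbols PBS and filled symbols ethanol. On these deposited values the filled squares lie leftmost for 15 of 19 genes, and farthest left for Wnt7b.

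Promoter sequence is shown for 4 members whose readings went different ways: Fzd7 and Sfrp2, which read lowest on the hippocampus ethanol array, Wnt4, which read highest there, and Frzb, which stood apart on the hippocampus PBS array. The windows hold the 250 bases before the start of the gene, 5′ to 3′, from RefSeq on build GRCm38.p6: Fzd7 at chr1:59481897-59482146 on the plus strand, Sfrp2 at chr3:83766071-83766320 (plus), Wnt4 at chr4:137277385-137277634 (plus) and Frzb at chr2:80447397-80447646 (minus). Capitals mark, on either strand, the TCF/LEF cores CTTTGAA and CTTTGAT and CTTTGTA and CTTTGTT, and further the GC box GGGCGG, with overlapping GC boxes counted separately.
Fzd7: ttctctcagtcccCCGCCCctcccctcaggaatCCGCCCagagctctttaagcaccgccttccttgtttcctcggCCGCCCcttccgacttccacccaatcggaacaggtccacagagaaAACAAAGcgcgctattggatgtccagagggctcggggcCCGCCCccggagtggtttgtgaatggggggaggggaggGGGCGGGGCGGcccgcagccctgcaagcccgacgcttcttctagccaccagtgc
Sfrp2: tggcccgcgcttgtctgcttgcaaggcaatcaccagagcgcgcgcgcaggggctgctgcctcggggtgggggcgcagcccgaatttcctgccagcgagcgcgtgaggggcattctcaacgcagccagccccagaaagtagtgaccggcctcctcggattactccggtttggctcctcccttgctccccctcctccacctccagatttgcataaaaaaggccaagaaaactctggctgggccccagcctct
Wnt4: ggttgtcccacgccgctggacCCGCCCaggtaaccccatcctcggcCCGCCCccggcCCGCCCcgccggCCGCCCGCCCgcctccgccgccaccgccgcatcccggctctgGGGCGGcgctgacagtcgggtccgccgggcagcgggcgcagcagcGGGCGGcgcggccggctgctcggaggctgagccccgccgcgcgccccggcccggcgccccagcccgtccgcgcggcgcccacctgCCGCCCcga
Frzb: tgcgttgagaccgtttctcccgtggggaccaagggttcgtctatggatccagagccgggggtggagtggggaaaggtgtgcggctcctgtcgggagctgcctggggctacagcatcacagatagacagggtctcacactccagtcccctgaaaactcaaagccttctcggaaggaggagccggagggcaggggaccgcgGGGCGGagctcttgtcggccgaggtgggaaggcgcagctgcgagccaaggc

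Fzd7 held 1 TCF/LEF core, read as AACAAAG from 130 to 124 bases before the start, and 6 GC boxes. Wnt4 held 8 GC boxes and Frzb 1, and Sfrp2 held neither motif. RefSeq windows were matched for 30 of the 48 genes (33 windows), and 12.1% of these windows held a TCF/LEF core, against 14.8% of all 32851 windows of this length. A GC box was in 72.7% of the Wnt gene windows and in 32.7% of all. Of the 7 genes above the filter that had a window, Fzd7 was the one with a TCF/LEF core. A match is a run of letters and no measure of binding.

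Among the ligands, Wnt7b, which acts in blood vessel growth into the brain and in dendrite growth, showed the largest difference of the 19 genes. It read 8.36 in forebrain after PBS, 8.25 in forebrain after ethanol, 8.45 in hippocampus after PBS and 7.58 in hippocampus after ethanol. The hippocampus ethanol array thus stood below the other arrays, which lay within 0.20 of each other, and its distance to the nearest of them was -0.68. The hippocampus difference was -0.88, a reading 1.84-fold lower, and the forebrain difference -0.10. Wnt7b was the only 1 of 19 Wnt genes at least 1.5-fold lower in hippocampus, a size reached downward by 0.427% of all kept genes and upward by 0.49% of them and none of the 19.

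Wnt7a, the closest relative of Wnt7b and a ligand of axon and synapse maturation, went the other way. It read 8.54 and 8.36 in forebrain after PBS and after ethanol, and 8.41 and 8.59 in hippocampus. Its differences were 0.17 in hippocampus and -0.18 in forebrain, and the arrays of each treatment overlapped. Wnt4, a ligand of organ formation and axon guidance, read 7.58 and 7.73 in forebrain and 7.57 and 7.87 in hippocampus after PBS and ethanol. Both ethanol arrays were above both PBS arrays, by 0.14 in forebrain and 0.30 in hippocampus. Wnt4 was the member with more than 1 probe set, and its other probe set, which read 6.70 to 6.98, differed by 0.10 in hippocampus and -0.14 in forebrain. Wnt5a, the best-known ligand of beta-catenin-independent signalling, read 7.93 on both forebrain arrays, 7.91 in hippocampus after PBS and 7.79 after ethanol.

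The Frizzled receptors are membrane proteins with an extracellular Wnt-binding domain. Of the 7 kept, 6 read lower in hippocampus after ethanol, with a median of -0.23, while 69.3% of all kept genes read lower. Among the ethanol arrays all 7 read lower in hippocampus than in forebrain, against 69.6% of all kept genes, but 5 did with centred arrays, where Fzd2 and Fzd3 turned higher, and 6 after quantile normalization, where Fzd2 did. Fzd7 read 7.91 and 7.93 in forebrain after PBS and ethanol, 7.90 in hippocampus after PBS and 7.48 in hippocampus after ethanol. The first 3 arrays differed by at most 0.03, and the last differed from its own control by -0.42. Fzd1 had the same arrangement, at 9.16 on each forebrain array, 9.18 in hippocampus after PBS and 8.85 after ethanol, a difference of -0.32. Fzd8 read 8.24 and 8.15 in forebrain, 8.15 in hippocampus after PBS and 7.78 after ethanol, a hippocampus difference of -0.37 and a forebrain difference of -0.09. For these 3 receptors a single array was low, and the others lay close together.

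The other receptors differed less. Fzd3, which guides axon tracts of the forebrain and acts in planar cell polarity, read 10.78 in each tissue after PBS, and 10.63 in forebrain and 10.59 in hippocampus after ethanol. It was therefore lower after ethanol in both tissues by similar amounts, -0.15 and -0.20. Fzd9 differed by -0.23 in hippocampus and -0.01 in forebrain, and Fzd2 by -0.16 and 0.03. Fzd6, a planar polarity receptor, differed by 0.02 in hippocampus and -0.08 in forebrain, and differed instead by tissue, at 8.27 and 8.18 in forebrain while hippocampus read 7.98 after PBS. Against the forebrain PBS array its difference was -0.26, the opposite direction.

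Lrp5 and Lrp6, the co-receptors of the beta-catenin branch, had the same order of arrays at their ends. Lrp5 read 7.78 and 7.73 in forebrain after PBS and ethanol, and 7.89 and 7.57 in hippocampus. Lrp6 read 9.38 and 9.35 in forebrain, and 9.50 and 9.24 in hippocampus. In each gene the hippocampus PBS array was the highest and the hippocampus ethanol array the lowest, so that the differences of -0.31 and -0.26 have both ends outside the forebrain values.

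The R-spondins act through the receptors Lgr4 to Lgr6 and the ubiquitin ligases Znrf3 and Rnf43. Rspo3 read 7.83 and 7.74 in forebrain after PBS and ethanol, 8.25 in hippocampus after PBS and 7.71 after ethanol. Its hippocampus difference of -0.54 came with a PBS array that was high, while the hippocampus ethanol array differed from the nearest forebrain array by -0.03. With the forebrain PBS array as control in place of the hippocampus PBS array, an alternative chosen after seeing the data, the difference was -0.13. Rspo2 read 7.72 and 7.86 in forebrain, 7.89 in hippocampus after PBS and 7.54 after ethanol, with differences of -0.35 in hippocampus and 0.14 in forebrain.

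Of the secreted inhibitors, Sfrp2, a Frizzled-related protein of ventricular zone progenitors, read 8.89 and 9.05 in forebrain after PBS and ethanol and 8.80 and 8.41 in hippocampus. The hippocampus ethanol array was the lowest and the forebrain ethanol array the highest, with differences of -0.39 and 0.15. Sfrp1, a relative made by radial glia, read 8.55 and 8.58 in forebrain and 8.82 and 8.63 in hippocampus. Its difference of -0.19 rested on the hippocampus PBS array, and it was 0.08 against the forebrain PBS array. Dkk3, a divergent Dickkopf family member, differed by -0.23 in hippocampus and by less than 0.01 in forebrain. Axin2, a scaffold of the beta-catenin destruction complex and a widely used readout of the pathway, read 7.94 and 7.91 in forebrain and 7.78 and 7.62 in hippocampus. It was thus lower in hippocampus under each treatment, and the difference after ethanol was -0.17 in hippocampus and -0.02 in forebrain. The hippocampus difference was -0.07 with centred arrays and -0.32 against the forebrain PBS array.

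By a log2 difference of at least 0.32, 7 of the 19 genes read lower in hippocampus after ethanol, Wnt7b, Rspo3, Fzd7, Sfrp2, Fzd8, Rspo2 and Fzd1, against 5.95% of all kept genes, and 0 read higher. With centred arrays 2 did, against 2.28% of all kept genes, and after quantile normalization 3, against 3.28%. In forebrain 0 of 19 were 1.5-fold apart, against 0.0726% of all kept genes. The differences went the same way in both tissues for 11 genes, 10 lower and Wnt4 higher, and opposite ways for 8. The shares of all kept genes that did so were not counted. The hippocampus difference minus the forebrain difference was largest for Wnt7b at -0.77, followed by Sfrp2 at -0.55, Rspo2 at -0.50, Rspo3 at -0.45 and Fzd7 at -0.44, and its middle value was -0.23 for the 19 genes and -0.06 for all kept ones. With 4 arrays that difference has no test.

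**Figure D2:**
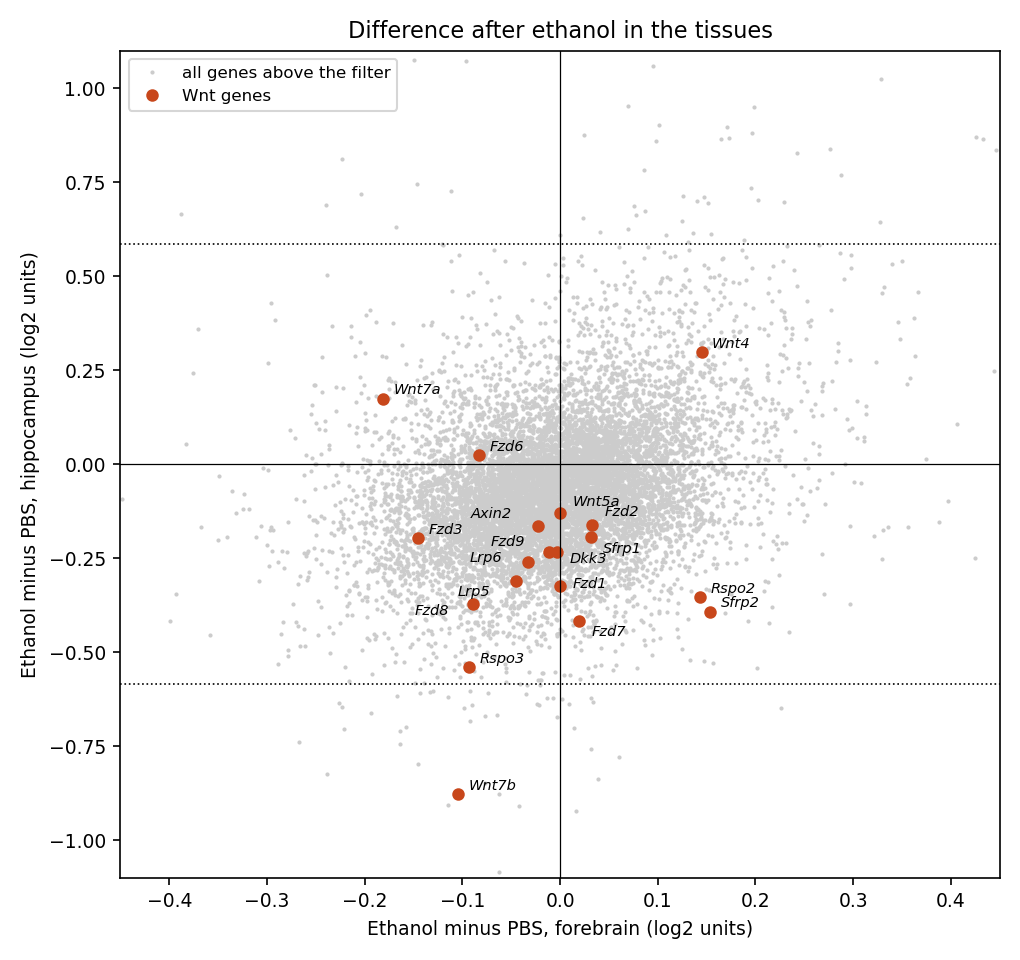
Ethanol minus PBS in forebrain (horizontal) against hippocampus (vertical), in log2 units, for all genes above the filter that lie within the axes (grey) and the 19 Wnt genes (orange); dotted lines mark 1.5-fold. Most Wnt genes lie below 0 on the vertical axis and near 0 on the horizontal one, Wnt7b lies below the lower line at -0.88, and Wnt4 and Wnt7a lie above 0.

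The other 29 genes stayed below the filter: Wnt1, Wnt2, Wnt2b, Wnt3, Wnt3a, Wnt5b, Wnt6, Wnt8a, Wnt8b, Wnt9a, Wnt9b, Wnt10a, Wnt10b, Wnt11, Wnt16, Fzd4, Fzd5, Fzd10, Fzd10os, Rspo1, Rspo4, Sfrp4, Sfrp5, Frzb, Dkk1, Dkk2, Dkk4, Wif1 and Notum. Their readings ran from 5.32 to 7.28. Of the ligands taken as cortical hem markers, Wnt2b, Wnt3a and Wnt8b were among them, and Wnt5a was kept. In hippocampus 24 of the 29 read higher after ethanol and 5 lower, with a median of 0.14, against 67.0% higher and a median of 0.08 for all genes below the filter. Ligands read higher in 13 of 15, with Wnt10a at 0.37, Wnt16 at 0.34 and Wnt5b at 0.31, and Wnt3a and Wnt8b were the ligands that read lower. Of the others, Rspo4 differed by 0.45, Fzd10, a receptor of the dorsal neural tube, by 0.40 and the inhibitor Dkk4 by 0.36. Fzd4, the receptor of brain and retinal vessels, had the lowest difference at -0.33, and read 7.08 and 6.85 in forebrain after PBS and ethanol and 6.84 and 6.51 in hippocampus. In forebrain 17 of the 29 read higher and 12 lower, with a median of 0.03, against 51.4% higher and a median of 0.01 for all genes below the filter.

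The direction of the hippocampus difference thus went with the level of the gene, for Wnt genes and for all genes. Across all genes the median hippocampus difference was 0.09 for means from 6 to 7.11, -0.04 from 7.11 to 8, -0.10 from 8 to 9 and -0.09 from 9 to 10. The 8 Wnt genes with means from 7.11 to 8 had a median of -0.27, and the 8 with means from 8 to 9 a median of -0.21. Set against the median of all genes in the same range of level, 16 of the 19 kept Wnt genes lay below it, by a median of -0.17, and 10 of the 29 others did. Over all 48 genes, 43.8% read lower in hippocampus and the median was 0.04.

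**Figure D3:**
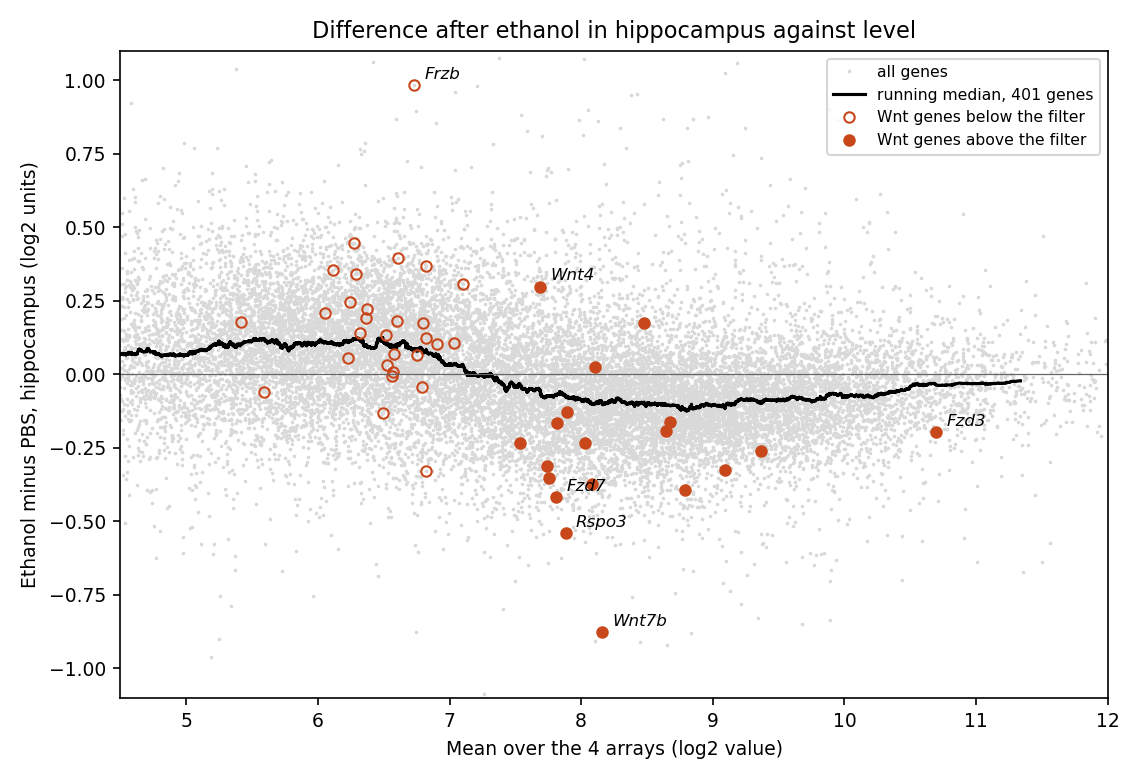
Hippocampus difference after ethanol in log2 units against the mean of the 4 arrays for all genes (grey) with their running median (black), and for Wnt genes above (filled) and below (open) the filter. The running median is above 0 at low levels and below 0 at higher ones; most filled circles lie under it, and Frzb lies far above it.

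Frzb, a Frizzled-related inhibitor best known from cartilage, was the 1 gene of the 48 that was at least 1.5-fold higher in hippocampus after ethanol, against 0.657% of all genes with no filter. It read 7.14 in forebrain after PBS, 6.73 in forebrain after ethanol, 6.04 in hippocampus after PBS and 7.02 in hippocampus after ethanol. The low hippocampus PBS array set the difference of 0.98, which was -0.12 against the forebrain PBS array, and the forebrain difference was -0.41. Markers of meningeal fibroblasts were also lowest in hippocampus after PBS in their summed signal. All 12 kept read lower in hippocampus than in forebrain under both treatments, whereas Frzb did so only after PBS. Of all kept genes 47.5% did so after PBS and 69.6% after ethanol. While 69.3% of all kept genes read lower in hippocampus after ethanol, 10 of these 12 markers read higher, with a median of 0.25. Their summed signal was 12.52 and 12.38 in forebrain after PBS and ethanol and 11.47 and 11.77 in hippocampus, on the log2 scale. Of the 13 on the list, Lum was below the filter. Their part in the Frzb reading was not tested.

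Tissues were compared next. Among the PBS arrays, 11 of the 19 kept Wnt genes read higher in hippocampus than in forebrain and 8 lower, with a median of 0.01, against 47.5% of all kept genes lower and a median of 0.01. Of the 19, 0 were 1.5-fold apart, against 1.28% of all kept genes. Rspo3 had the largest of these differences at 0.41, followed by Fzd6 at -0.29 and Sfrp1 at 0.27. Among the ethanol arrays 16 read lower in hippocampus, with a median of -0.15, against 69.6% of all kept genes and a median of -0.06. With centred arrays 13 did, against 42.4%, and after quantile normalization 14, against 56.9%. Wnt7b at -0.68 and Sfrp2 at -0.64 were 1.5-fold apart, against 0.69% of all kept genes. The tissues did not overlap for 6 genes, Axin2, Fzd6, Fzd7, Sfrp1, Sfrp2 and Wnt5a, against 42.3% of all kept genes, a share of the Wnt genes no higher than that background. The treatments did not overlap for 10, among them Wnt7b, Rspo3, Fzd8, Fzd1, Lrp5, Lrp6 and Wnt4, against 37.6%.

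In limma, an ethanol effect shared by the tissues was fitted beside a tissue effect, with Benjamini-Hochberg adjustment over all 11013 genes. For ethanol 0 of the 19 Wnt genes passed, and 0% of all kept genes did. The lowest adjusted p of a Wnt gene was 0.51, and it ran from 0.22 to 0.84 over the alternatives. The estimates were -0.49 (SE 0.16) for Wnt7b, -0.32 (SE 0.12) for Rspo3, -0.23 (SE 0.10) for Fzd8, -0.17 (SE 0.05) for Fzd3 and 0.22 (SE 0.09) for Wnt4. These 5 were the Wnt genes with an unadjusted p under 0.05 in limma, as were 1075 of all kept genes. Lower readings in 1 tissue count as error in this fit, which has 1 residual degree of freedom. For the tissue effect, limma called 1.13% of all kept genes and 0 Wnt genes, with Sfrp2 at -0.36 (SE 0.13, adjusted p = 0.23) and Fzd6 at -0.23 (SE 0.08, adjusted p = 0.24). For that effect 4 Wnt genes had an unadjusted p under 0.05 in limma, as did 1666 of all 11013 kept genes.

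Genes that act around and below the receptors were taken from 4 lists, which hold 83 other kept genes. In hippocampus 63 of the 83 read lower after ethanol and 20 higher, against 69.3% lower over all kept genes. The median of the 83 was -0.10, close to that of all kept genes, and in forebrain it was -0.02. With centred arrays the hippocampus split was 41 lower and 42 higher, against 43.6% lower over all kept genes. After quantile normalization it was 55 and 28, against 54.8%. Limma called 0 of the 83 for ethanol. Against the same 69.3%, 11 of 19 secretion and co-receptor genes read lower (median -0.11), and 10 did with centred arrays. Among them Gpc4, a heparan sulphate proteoglycan that binds Wnts, read 8.47 and 8.43 in forebrain after PBS and ethanol and 8.90 and 7.99 in hippocampus, a difference of -0.91. Lgr4, a receptor of R-spondins, differed by 0.38, Porcn, the enzyme that attaches the lipid to Wnts, by -0.35, Ndp, a Fzd4 ligand, by -0.32, Sostdc1, a secreted inhibitor that is also a choroid plexus marker, by -0.32, Ryk, a Wnt receptor of axons, by -0.32, Draxin, an axon guidance protein that also damps Wnt signalling, by -0.31 and Ror1, a receptor of Wnt5a, by 0.27.

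Intracellular transduction genes read lower in 33 of 41 (median -0.08), against 69.3% of all kept genes. With centred arrays 17 of 41 did, against 43.6%. Beta-catenin itself, Ctnnb1, differed by -0.01, Gsk3b, a kinase of the destruction complex, by -0.05 and its scaffold Apc by 0.07. Tcf7l2, a TCF factor that is also a thalamic marker, was the exception in size: it read 8.73 and 9.20 in forebrain after PBS and ethanol and 8.22 and 9.05 in hippocampus, higher by 0.47 and 0.84. Both ethanol arrays were above both PBS arrays, and limma gave 0.65 with an adjusted p of 0.26. Next were the corepressor Tle3 at -0.42, the Frizzled adaptor Dvl3 at -0.32, the beta-catenin cofactors Pygo2 at -0.31 and Bcl9 at -0.22, and Dact1, which binds Dishevelled, at -0.22. Cby1, a beta-catenin antagonist, differed by -0.21 and Dact3 by 0.20.

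All 12 kept planar cell polarity genes read lower in hippocampus (median -0.18), against 69.3% of all kept genes. With centred arrays 8 did, against 43.6%, and after quantile normalization 10, against 54.8%. In forebrain 9 of 12 read lower (median -0.04), against 53.8%. The largest hippocampus differences were those of the atypical cadherins Celsr1 at -0.37, Celsr2 at -0.36 and Celsr3 at -0.24, the membrane protein Vangl2 at -0.27 and its partner Prickle1 at -0.21. They were followed by the kinase Mapk8 at -0.19, the scaffold Scrib at -0.18 and Ankrd6 at -0.11. Genes widely used as targets read lower in hippocampus in 9 of 15 (median -0.09), and in 7 of 15 with centred arrays, against the same 69.3% and 43.6%. Neurog2, a proneural factor, differed by -0.61, Emx2, a regulator of medial cortex, by -0.36, Id2 by -0.30, the growth factor Fgf18 by 0.27, Zic2 by 0.22, Myc by 0.22, Mycn by -0.20 and the cyclin Ccnd1 by -0.17. The textbook feedback targets Nkd1 and Lef1 differed by 0.06 and -0.09, beside the -0.17 of Axin2, which was -0.07 with centred arrays, and Notum stayed below the filter.

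**Figure D4:**
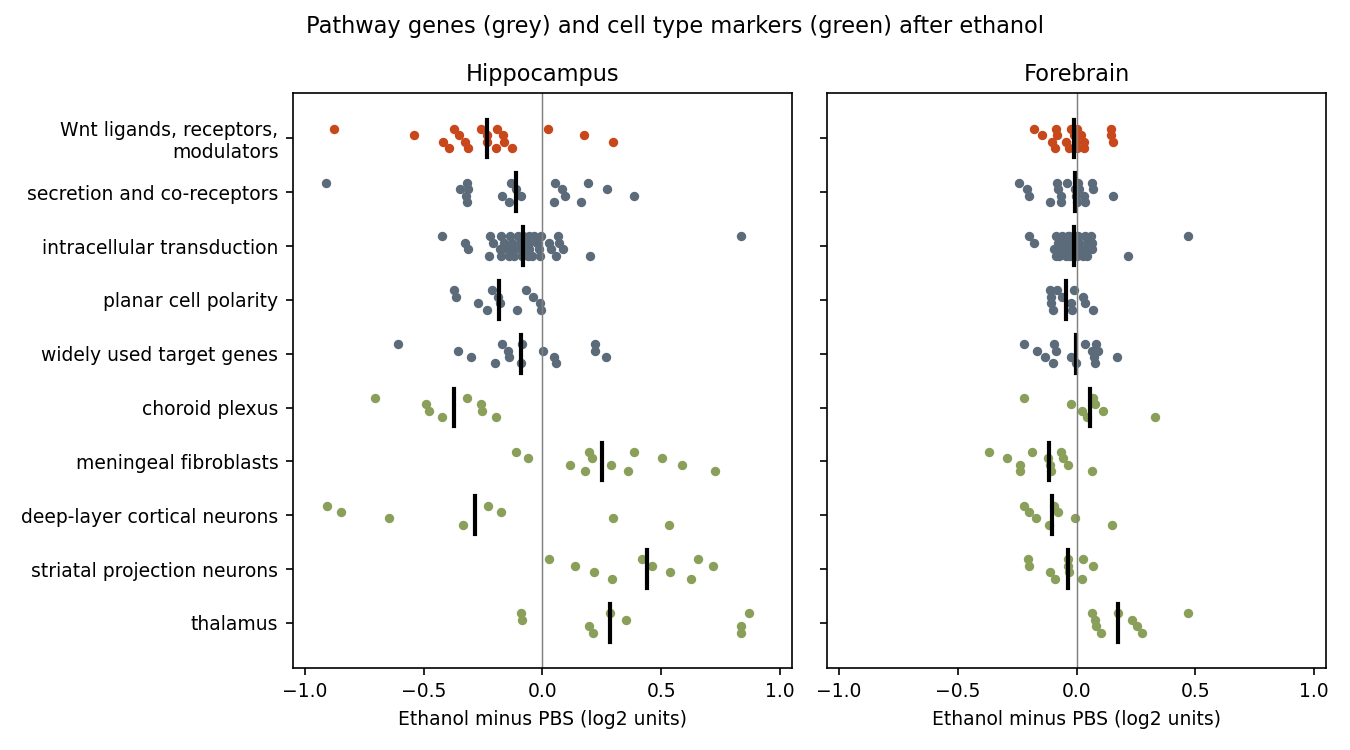
Ethanol minus PBS in log2 units in hippocampus (left) and forebrain (right) for the 19 Wnt genes, 4 lists of other pathway genes and 5 lists of cell type markers; each point is a gene above the filter and the black bar is the median. In hippocampus the Wnt median is -0.23, the choroid plexus median -0.37 and the striatal median 0.44, and the forebrain medians lie nearer to 0. Not drawn are the lists for endothelium, radial glia, hippocampal fields and cortical hem, with smaller hippocampus medians of -0.09, -0.15, -0.05 and 0.16. The hem median covers 2 genes, Msx1 and Bmp7, and leaves out the hem markers that are Wnt genes.

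Median hippocampus differences of the cell type marker lists ran from -0.37 to 0.44, beside -0.23 for the Wnt genes. Some of them lay near the -0.08 of all kept genes. All 8 kept choroid plexus markers read lower in hippocampus after ethanol (median -0.37), with Kcnj13 at -0.70, against 69.3% of all kept genes. Among the PBS arrays all 8 read higher in hippocampus than forebrain (median 0.48), while 47.5% of all kept genes read lower. The summed signal of these markers was 12.40 and 12.50 in forebrain and 12.95 and 12.71 in hippocampus after PBS and ethanol. Cldn2, Kcne2 and Kl were below the filter. Rspo3, like these markers, was highest in hippocampus after PBS. Of the 19 Wnt genes, 11 were highest there, among them Fzd1, Lrp5, Lrp6 and Wnt7b. After PBS Rspo3 was 0.41 higher in hippocampus than in forebrain, and Sfrp1 0.27. Fzd1, Lrp5, Lrp6 and Wnt7b were 0.01 to 0.12 higher, and the 8 choroid plexus markers 0.35 to 0.61 higher. The part of choroid plexus in the Rspo3 reading was not tested. Deep-layer cortical neuron markers read lower in 6 of 8 (median -0.28), against 69.3% of all kept genes. On this list the neurotensin receptor Ntsr1 differed most, at 8.33 and 8.22 in forebrain and 8.38 and 7.48 in hippocampus. It had the same order of arrays as Wnt7b, as did Sox5 at -0.85, Fezf2 at -0.65 and Tle4 at -0.18. The share of all kept genes with that order was not counted. On this list 3 of 8 were at least 1.5-fold lower, against 0.427% of all kept genes. Foxp2 and Bcl11b read higher, by 0.53 and 0.30. The list's summed signal was 12.64 and 12.54 in forebrain and 12.77 and 12.58 in hippocampus. That sum was highest in hippocampus after PBS, as Wnt7b was, and lowest in forebrain after ethanol, as Wnt7b was not. Tbr1 and Bcl11b, with the highest readings on the list, weigh most in it. Bcl11b read 10.31 and 10.61 in hippocampus after PBS and ethanol. The part of these neurons in the Wnt7b reading was not tested.

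Striatal markers read higher in 10 of 10 (median 0.44) and thalamic ones in 7 of 9 (median 0.28), while 69.3% of all kept genes read lower. Summed signals were 12.15 and 12.58 (striatal) and 11.35 and 11.75 (thalamic) in hippocampus after PBS and ethanol. In forebrain the striatal sums were 11.96 and 11.92 and the thalamic sums 11.80 and 12.02. Radial glia markers, which mark the cells that express Sfrp1, read lower in 6 of 10 (median -0.15), against the same 69.3%. Differences ran from Gli3 at -0.54 and Nes at -0.48 to Hes5 at 0.14 and Fabp7 at 0.19. The list's summed signal was 13.38 in hippocampus after PBS and after ethanol alike. In forebrain it was 13.34 and 13.33. Fabp7 and Vim, with the highest readings on the list, weigh most in that sum, and differed by 0.19 and -0.16 in hippocampus. Endothelial markers read lower in 7 of 10 (median -0.09), or 4 of 10 with centred arrays. Hippocampal field markers other than Dkk3 read lower in 8 of 14 (median -0.05), or 4 of 14 with centred arrays. Beside both lists, 69.3% of all kept genes read lower, or 43.6% with centred arrays. Of the markers of the cortical hem that are not Wnt genes, Msx1 and Bmp7 were kept, and read higher by 0.19 and 0.14. The hem list also held Wnt5a, Rspo2 and Rspo3, counted here with the Wnt genes. These read lower, with differences of -0.13, -0.35 and -0.54, so the kept hem markers went both ways. The part of tissue makeup in the Wnt readings was not tested.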

How the data were processed

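Total RNA extracted with Trizol was labelled, per the labels' protocols, from 6 ug by the Affymetrix cRNA method. MAS5 is named in the submitters' processing notes, without settings. The authors' deposited values are on a log2 scale, read from their range of 1.58 to 13.96. Groups come from the sample titles, with 1 array each, so precision is limited by their number.

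Probe sets with 1 gene symbol in the platform annotation (21789 of 35557) were used, with several symbols in 1621 and none in 12147. The probe set with the highest mean stood for a gene, and the 48 Wnt genes have 49. All 48 symbols were in the RefSeq table of assembly GRCm38.p6. Differences were counted at 1.5-fold. limma 3.58.1 in R 4.3.3 (additive treatment and tissue, eBayes with trend, Benjamini-Hochberg at 0.05) was fitted to all kept genes and tested on simulated data. P-values reflect only how far the ethanol difference disagreed between the tissues, drawn by eBayes toward the value of other genes. That disagreement may be technical or a true tissue difference, and is no spread between replicates. Alternatives were the filter, the probe set rule, array centring, quantile normalization, the threshold, the trend and the terms. The members and lists were chosen with earlier results of these data known. Named are all Wnt genes and, per pathway list, up to 8 kept genes with the largest hippocampus difference; Ctnnb1, Gsk3b, Apc, Nkd1, Lef1 and the markers were named after their values were seen, and the GC box was added then. Python 3.11.15 did the rest.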

Additional observations from a re-analysis of the deposited data

Results flagged for a closer look

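For 6 Wnt genes the readings after ethanol went opposite ways in the tissues, by more than 0.08 in each. How large a share of all genes did so was not counted, so the 6 cannot be called many or few. That limit of size is the median residual SD of the limma fit over kept genes, which did not include Frzb, Wnt2 and Wnt2b, and it is no test. In a fit with no filter the median was 0.094, which the forebrain difference of Wnt2b (-0.093) does not exceed. The hippocampus difference minus the forebrain difference was 1.39 for Frzb, -0.55 for Sfrp2, -0.50 for Rspo2, 0.36 for Wnt2, 0.36 for Wnt7a and 0.22 for Wnt2b. Sfrp2, Rspo2 and Wnt7a passed the filter and the others did not. With 1 array per group the difference between tissues was not tested.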

How the results depend on the processing

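Each of the 19 Wnt genes above the filter kept its direction in hippocampus under array centring, quantile normalization and the mean of all probe sets, and 17 did against the forebrain PBS array. The median of -0.23 became -0.14 with centred arrays. Without a filter it was 0.044, with 43.8% of genes lower and 1 gene 1.5-fold higher, since the 29 added genes lie at levels where most genes read higher. The count of 1 gene 1.5-fold lower became 7 at a log2 threshold of 0.32 and 0 at 2-fold, and 0 with the 75th percentile filter, which leaves 6 Wnt genes. With the forebrain PBS array as control, Sfrp1 differed by 0.081, Frzb by -0.12 and Fzd6 by -0.26, opposite in direction. In forebrain the median was 0.015 with the 75th percentile filter and 0.0082 with centred arrays.

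Between tissues after PBS, the median without a filter was -0.013, with 1 gene, Frzb, 1.5-fold lower. With the 75th percentile filter 16.7% of genes read lower. With the usual filter and the log2 threshold of 0.32, 1 gene, Rspo3, was higher. After ethanol the median was -0.018 without a filter (54.2% lower) and -0.065 with centred arrays. The count 1.5-fold lower was 1 with the 75th percentile filter, with centred arrays and after quantile normalization, 5 at the log2 threshold of 0.32 and 0 at 2-fold.

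For ethanol, limma called 7 genes in all with the 75th percentile filter, 2 with centred arrays and 14 after quantile normalization. For tissue it called 124 genes, 37 without a filter, 66 with centred arrays, 416 after quantile normalization, 27 without the trend and 0 without the treatment term. In each of 7 alternatives for either effect, 0 Wnt genes passed. Where no construction is named, the cause of a shift was not tested. No paired analysis was possible because the labels carry no replicate numbers, and no array could be left out, since each group has 1.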
